A study of Homo sapiens with 8 samples.

Results

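The genes of cholesterol and fatty acid synthesis and their regulators were examined in OVISE, a human cell line established from a clear cell carcinoma of the ovary. The 35 members were chosen by gene symbol for what their products do, with earlier results of these data known. Each was found in a row of the deposited table, which holds 27757 loci. They comprised 17 enzymes of the sterol branch, 12 genes of the fatty acid branch, and 6 regulators or carriers. Of these, 34 reached 1 FPKM (fragments scaled to transcript length and library size) in at least 2 libraries and were tested among 12112 loci. The exception was ACACB, the mitochondrial acetyl-CoA carboxylase, whose highest value in any library was 0.345 FPKM.

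The libraries fell into 4 groups of 2. SYK-KO EGF and SYK-WT EGF cells had received epidermal growth factor at 50 ng/ml for 24 h, and SYK-KO and SYK-WT cells had not been treated. SYK is a cytoplasmic tyrosine kinase known above all for signalling in immune cells. Its gene had been targeted in exon 2 by a Cas9 nickase and a pair of guides, after which cells were selected with puromycin and grown from single cells. How many clones entered the libraries, and whether the SYK-WT cells were themselves a clone, is not given in the sources used here, so clone and genotype cannot be told apart. Nor is it given whether the libraries of a group stem from separate cultures, so that the spread behind each p-value may be technical, since it is that between these libraries alone.

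Cells make cholesterol from acetyl-CoA by way of mevalonate, farnesyl diphosphate, squalene and lanosterol, and make fatty acids from acetyl-CoA by way of malonyl-CoA. Transcription of both branches is driven by the SREBP factors, which are made as precursors in the membrane of the endoplasmic reticulum. When sterols are scarce, the escort protein SCAP carries the precursor to the Golgi, where proteases release the active factor. When sterols are plentiful, the INSIG proteins hold SCAP back. SREBP-2, encoded by SREBF2, mainly serves the sterol branch, and SREBP-1, encoded by SREBF1, mainly the fatty acid branch. SREBP factors act on promoters together with the factors NF-Y and Sp1.

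The 250 bases before the start site are shown for 5 members, because SREBP factors act at such promoters and these genes carry much of what follows. FDPS and MSMO1 were the sterol enzymes with the largest differences between the genotypes, and INSIG1 and SCD differed in the other direction. SREBF2 held the only match to the letters searched for as the sterol regulatory element. Sequences are from RefSeq on GRCh38.p14, 5′ to 3′ on the strand of the gene. Capitals mark the NF-Y box CCAAT, read on either strand and so also as ATTGG, and in SREBF2 the sterol regulatory element TCACNCCAC.
FDPS, chr1:155308616-155308865, plus strand: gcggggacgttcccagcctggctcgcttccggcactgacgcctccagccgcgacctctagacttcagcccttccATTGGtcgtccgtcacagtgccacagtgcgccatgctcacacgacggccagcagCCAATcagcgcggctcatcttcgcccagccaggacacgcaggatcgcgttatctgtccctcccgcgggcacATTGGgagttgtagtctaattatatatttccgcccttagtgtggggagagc
MSMO1, chr4:165327419-165327668, plus strand: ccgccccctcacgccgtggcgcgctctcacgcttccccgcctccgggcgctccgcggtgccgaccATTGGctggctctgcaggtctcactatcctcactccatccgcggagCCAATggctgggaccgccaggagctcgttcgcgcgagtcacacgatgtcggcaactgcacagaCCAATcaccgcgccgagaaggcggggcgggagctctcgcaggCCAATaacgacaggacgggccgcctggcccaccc
INSIG1, chr7:155297628-155297877, plus strand: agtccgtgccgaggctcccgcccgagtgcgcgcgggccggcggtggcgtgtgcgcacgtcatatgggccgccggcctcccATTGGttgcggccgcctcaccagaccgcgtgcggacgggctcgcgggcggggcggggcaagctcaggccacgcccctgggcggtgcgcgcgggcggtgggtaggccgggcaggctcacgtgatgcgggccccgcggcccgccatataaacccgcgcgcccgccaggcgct
SCD, chr10:100346983-100347232, plus strand: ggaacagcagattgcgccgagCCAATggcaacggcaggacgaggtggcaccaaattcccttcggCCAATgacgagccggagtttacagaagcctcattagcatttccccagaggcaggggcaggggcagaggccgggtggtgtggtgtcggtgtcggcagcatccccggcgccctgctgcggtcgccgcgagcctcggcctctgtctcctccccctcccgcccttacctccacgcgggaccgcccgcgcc
SREBF2, chr22:41832855-41833104, plus strand: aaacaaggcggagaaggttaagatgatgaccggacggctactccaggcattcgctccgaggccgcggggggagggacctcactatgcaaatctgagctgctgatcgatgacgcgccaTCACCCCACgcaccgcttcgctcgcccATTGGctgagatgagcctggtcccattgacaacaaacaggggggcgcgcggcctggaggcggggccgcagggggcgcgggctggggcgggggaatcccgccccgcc

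RefSeq windows were found for 32 of the 35 members, each from 250 bases before to 50 after a start site, with 46 windows in all. FDPS held 3 NF-Y boxes, at positions -176, -122 and -51 from its start, and MSMO1 held 4, at -185, -139, -76 and -34. INSIG1 held a single NF-Y box at -170, and SCD held 2, at -229 and -186. Across the members, 13 of 15 sterol branch genes, 8 of 11 fatty acid branch genes and 3 of 6 regulators or carriers had an NF-Y box in at least 1 window. The share was 43.4% among 9998 genes at loci tested and 39.7% among all 27305 genes with a window. The element TCACNCCAC was found in 1 of the 32 genes, SREBF2, at position -133, against 1.48% of genes at loci tested. The Sp1 box GGGCGG was present in 30 of the 32 genes, against 77.3% of genes at loci tested, and the E-box CACGTG in 5 of them, against 12.4%. All motifs were read on both strands, none of the 4 contains another, and a match describes letters, not binding. Only these exact letters were searched, so a window without a match is not shown to lack a sterol regulatory element.

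In the deposited values, SYK stood at 2.80 and 3.16 FPKM in SYK-KO EGF cells, 3.11 and 3.43 in SYK-KO, 3.88 and 3.62 in SYK-WT EGF and 4.91 and 5.30 in SYK-WT cells. An edit of exon 2 can leave the transcript in place, so this level is no check of the knockout. Of 8 epithelial and clear cell carcinoma markers, 7 were at or above 1 FPKM in every library, and every marker looked at for fibroblasts, blood, endothelium or adipocytes stayed under 1 FPKM in every library, with a highest value of 0.519. The depth, estimated from the step between low FPKM values, was about 22800000 to 26800000 fragments per library. The SYK-WT pair lay furthest apart, with a median absolute difference of 0.150 on the log2 scale over the tested loci, against 0.0828 in the SYK-KO EGF pair, 0.0669 in the SYK-KO pair and 0.0709 in the SYK-WT EGF pair. The comparisons share libraries: each group enters a comparison of genotype and a comparison of EGF.

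Levels differed widely among the members. FDPS had the highest mean over the 8 libraries, 1756 FPKM, followed by SCD with 492 and FDFT1 with 303 FPKM, while EBP averaged 6.27 and ELOVL6 1.39 FPKM. ELOVL6 is therefore read close to the limit for testing. FPKM are scaled to transcript length, so these levels can be set side by side. In bulk RNA, fewer cells expressing a gene and less RNA per cell cannot be told apart.

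**Figure D1:**
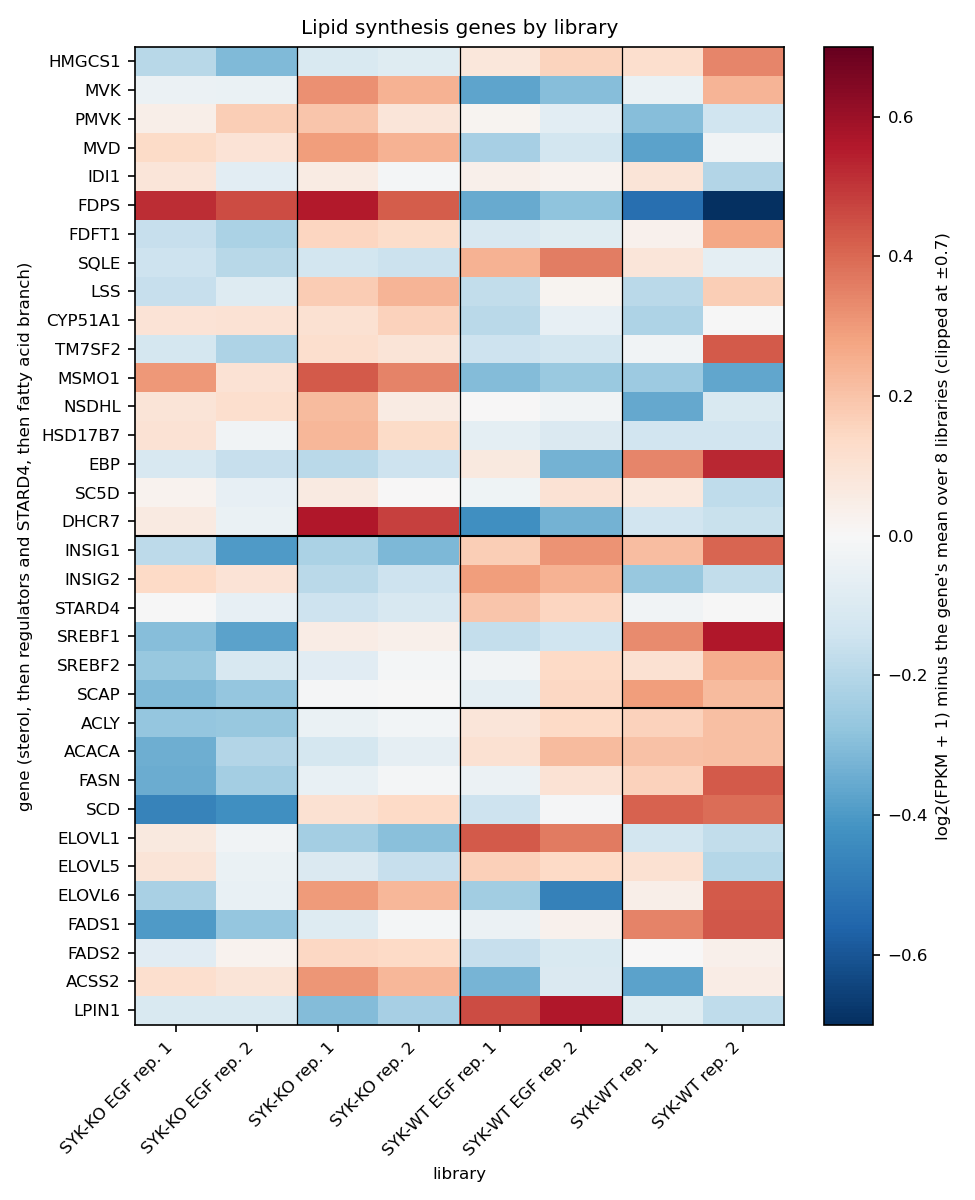
Each cell of the map is log2(FPKM + 1) of a gene in a library minus the mean of that gene over the 8 libraries, for the 34 genes tested, with the sterol branch at the top, regulators and STARD4 in the middle and the fatty acid branch at the bottom. FDPS, MSMO1 and DHCR7 are higher in SYK-KO than in SYK-WT libraries of the same treatment. INSIG1, SCAP, ACLY, ACACA, SCD and FADS1 are lower in that comparison.

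The comparison of the genotypes asks which lipid synthesis genes differ when SYK has been targeted. In untreated cells the calls of the branches lay on different sides: more sterol enzymes were higher than lower in SYK-KO cells, and more regulators and fatty acid genes were lower than higher. Of 17 sterol branch genes, 7 were higher and 2 lower in SYK-KO than in SYK-WT cells, with a median log2 fold change of 0.22. Of 6 regulators or carriers, 0 were higher and 3 lower, with a median of -0.25, and of 11 fatty acid branch genes 1 was higher and 5 lower, with a median of -0.14. Over all 34 members 8 were higher and 10 lower (limma, Benjamini-Hochberg adjusted p under 0.05 over all loci), beside 20.3% of all tested loci higher and 20.2% lower. The members called were 52.9% of those tested, against 40.5% of all loci, whose median log2 fold change was -0.01. The libraries of the genotypes did not overlap for 27 of the 34 members, with SYK-KO above for 12 and below for 15, beside 70.1% of all loci. Of the 12112 loci, SYK-KO lay above for 4139 and below for 4350. Left out in turn, single libraries moved the sterol count of higher genes between 3, without SYK-KO replicate 1, and 10, without SYK-WT replicate 2. The count of lower fatty acid genes moved between 1, without either SYK-KO library, and 5. Over all members, 3 higher and 3 lower genes were left without SYK-KO replicate 1, and 4 lower genes without SYK-KO replicate 2.

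After EGF, 4 sterol branch genes were higher and 2 lower in SYK-KO EGF than in SYK-WT EGF cells, with a median of 0.11. The calls among the others were all downward: 3 of 6 regulators or carriers and 7 of 11 fatty acid branch genes were lower, none was higher, and the medians were -0.22 and -0.33. Over all members 4 were higher and 12 lower, beside 21.1% and 22.5% of all loci, so that 47.1% of the members were called against 43.6% of all loci, a share near the background. The libraries did not overlap for 29 members, beside 78.9% of all loci. The fatty acid branch alone had 63.6% of its tested genes lower. Leaving out single libraries moved that count between 5 and 7, and the count of higher sterol genes between 3 and 6. The count of lower regulators or carriers was 1 without either SYK-KO EGF library or SYK-WT EGF replicate 2, and 6 without either SYK-WT library, when 1 fatty acid gene was also higher. Over all members, 7 were higher without either SYK-WT library, and 7 were lower without SYK-WT EGF replicate 2. Of the 34 members, 3 were higher in SYK-KO cells in both comparisons (FDPS, MSMO1 and DHCR7) and 8 were lower in both (HMGCS1, INSIG1, SCAP, ACLY, ACACA, FASN, SCD and FADS1). These were 8.82% and 23.5% of the members, beside 15.5% of all loci higher in both and 15.5% lower in both. None passed in opposite directions. Whether the branches differ from each other was not tested.

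A list of 10 proliferation genes, among them MKI67, had 8 genes higher and 1 lower in SYK-KO EGF than in SYK-WT EGF cells, beside 21.1% and 22.5% of all loci. It had 3 higher and 2 lower in SYK-KO than in SYK-WT cells, beside 20.3% and 20.2%. With EGF, 7 of the 10 were lower and 0 higher in SYK-WT EGF than in SYK-WT cells, beside 12.1% and 14.7%. In SYK-KO cells 0 passed with EGF, beside 6.67% of all loci higher and 5.13% lower. For the difference of the EGF responses between the genotypes, 0 of the 10 passed. The part of proliferation in the lipid gene values was not tested.

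**Figure D2:**
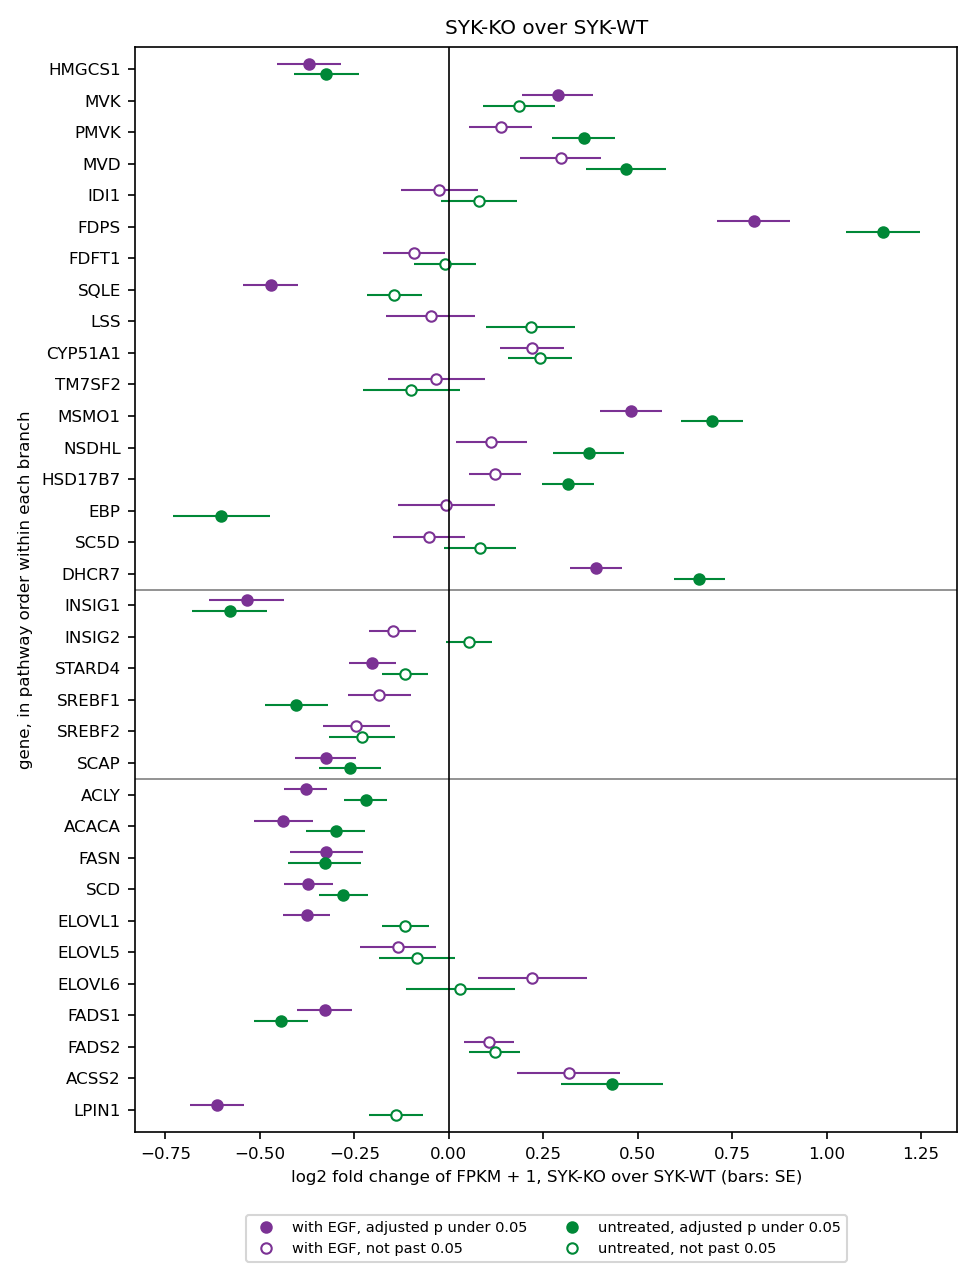
Points are log2 fold changes of FPKM + 1, SYK-KO over SYK-WT, with EGF and untreated, for the 34 genes tested, with bars for the standard error, and filled points have an adjusted p under 0.05. FDPS reaches 0.81 with EGF and 1.15 untreated, and filled points of the fatty acid branch lie left of 0 except ACSS2 in untreated cells.

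The EGF comparisons ask how the same genes respond to the ligand of EGFR after 24 h. In SYK-KO cells the direction was mostly downward: 28 of 34 members had a negative log2 fold change, 6 of them past the test, and 2 were higher. These were 17.6% and 5.88% of the members, beside 5.13% of all loci lower and 6.67% higher, and 11.8% in either direction. Of all 12112 loci, 6007 had a negative log2 fold change there. The sterol branch had 0 genes higher and 2 lower with a median of -0.15, and the fatty acid branch 1 higher and 3 lower with a median of -0.18. In SYK-WT cells 5 members were higher and 7 lower, beside 14.7% and 12.1% of all loci, and 35.3% of the members were called in either direction against 26.7% of all loci. The sterol branch had 2 higher and 3 lower with a median of 0.02, and the fatty acid branch 2 higher and 3 lower with a median of -0.08. Regulators or carriers gave 1 higher and 1 lower in each genotype. The medians of all tested loci were 0.00 in SYK-KO cells and 0.01 in SYK-WT cells. The EGF and untreated libraries did not overlap for 26 members in SYK-KO cells, 21 of them with EGF below, and for 23 in SYK-WT cells, 13 of them with EGF below. The shares of all loci were 63.3% and 63%. Of the 12112 loci, EGF lay below for 3746 in SYK-KO cells and 3691 in SYK-WT cells.

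These counts rest on small changes. In SYK-KO cells the count of lower members moved between 2, without any 1 of the SYK-KO EGF, SYK-KO or SYK-WT EGF libraries, and 12, without either SYK-WT library, and the count of higher members was 0 without any 1 of those 6. In SYK-WT cells the count of lower members moved between 3, without either SYK-WT EGF library, and 13, without SYK-WT replicate 1, and that of higher members was 3 without either SYK-WT EGF library. Passing in both genotypes were INSIG2 and ELOVL1, higher, and SREBF1, SCD, FADS1 and DHCR7, lower. These were 5.88% and 11.8% of the members, beside 5.92% of all loci higher in both and 4.08% lower in both. None passed in opposite directions, and 8 members passed in none of the 5 comparisons.

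**Figure D3:**
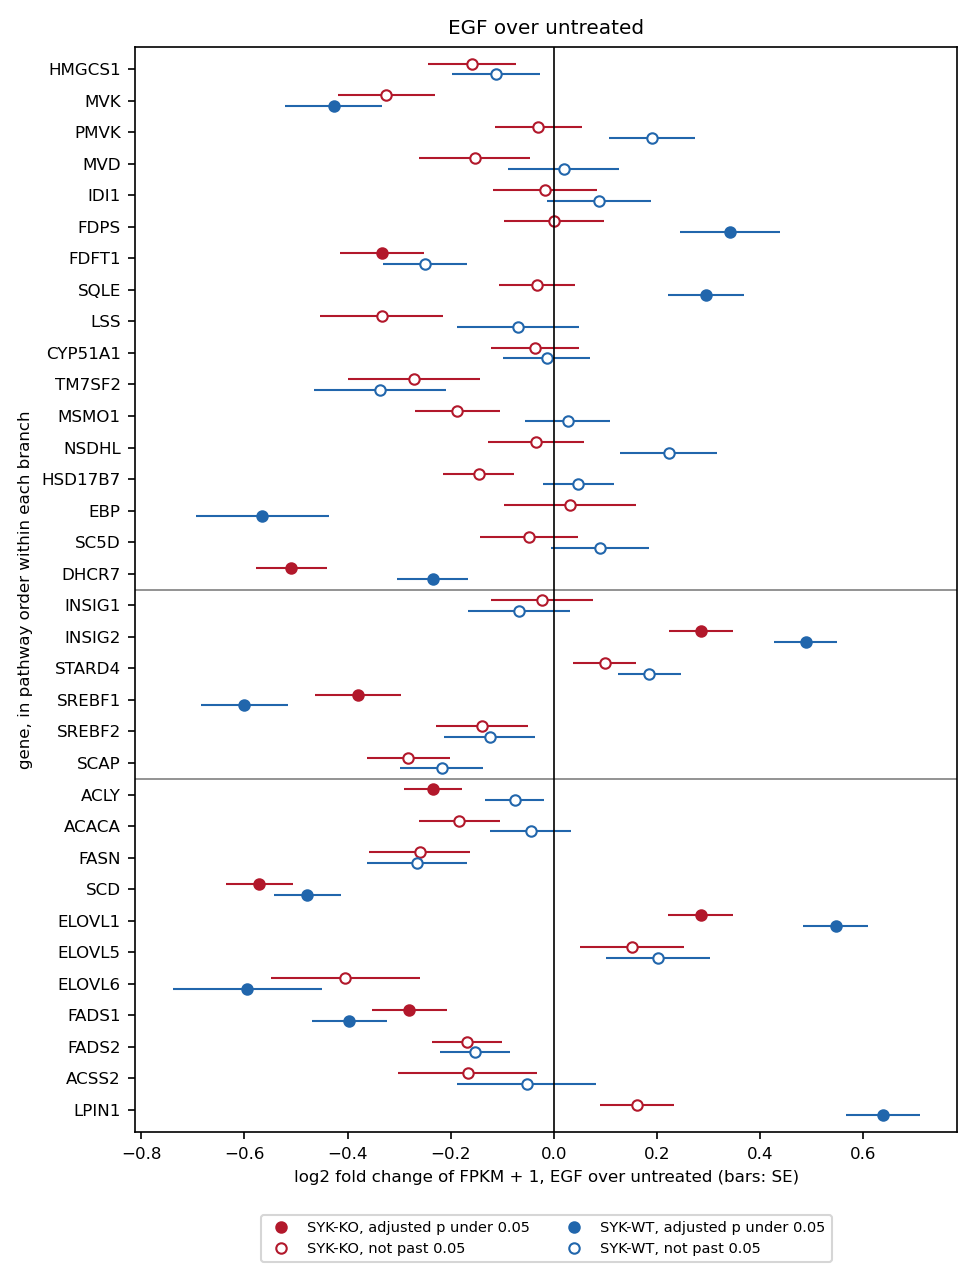
Points are log2 fold changes of FPKM + 1, EGF over untreated, within SYK-KO cells and within SYK-WT cells, for the 34 genes tested, with bars for the standard error, and filled points have an adjusted p under 0.05. SCD falls in both genotypes, INSIG2 and ELOVL1 rise in both, and LPIN1 is filled in SYK-WT cells only, where it is 0.64.

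Among the regulators, SREBF1 fell with EGF in both genotypes, INSIG2 rose with it, and INSIG1 was lower in SYK-KO cells in both treatments. SREBF1 (chromosome 17, 17584787 to 17740325, hg19) stood at 15.1 and 14.3 FPKM in SYK-KO EGF cells, 19.5 and 19.3 in SYK-KO, 16.7 and 17.0 in SYK-WT EGF and 24.0 and 28.3 in SYK-WT cells. In each genotype both EGF libraries lay below both untreated ones, and in each treatment both SYK-KO libraries lay below both SYK-WT ones. With EGF, SREBF1 of SYK-WT cells had a log2 fold change of -0.60 ± 0.084 (± SE, with n = 2 in each group; limma adjusted p = 0.00232), a call that held in every alternative. In SYK-KO cells the change was -0.38 ± 0.084 (adjusted p = 0.0259), which was no longer called without either SYK-KO EGF library, either SYK-KO library or either SYK-WT EGF library or with no filter on low values (adjusted p from 0.0523 to 0.154). SREBF1 was also lower in untreated SYK-KO than in SYK-WT cells, by 0.40 on the log2 scale (adjusted p = 0.00741), again in every alternative, while with EGF the difference was -0.18 (adjusted p = 0.112). The last passed without either SYK-WT library, with library quality weights or with only the compared groups in the fit (adjusted p from 0.0195 to 0.0411). The printed interval of this row also spans RAI1, RAI1-AS1, SMCR5 and miRNAs that have rows of their own.

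SREBF2 (chromosome 22, 42229083 to 42303312) stood at 68.6 and 76.6 FPKM in SYK-KO EGF cells, 78.1 and 81.9 in SYK-KO, 81.2 and 91.3 in SYK-WT EGF and 89.2 and 99.0 in SYK-WT cells. SYK-KO libraries lay below SYK-WT libraries in both treatments, but the differences did not pass: they were -0.24 ± 0.088 with EGF (adjusted p = 0.055) and -0.23 ± 0.088 untreated (adjusted p = 0.0703). With EGF the difference passed without either SYK-WT library, with library quality weights or with only the compared groups in the fit (adjusted p from 0.0219 to 0.0361), and untreated it passed without SYK-WT replicate 1 (adjusted p 0.0291). With the replicate number as a block, both genotype differences passed (limma adjusted p = 0.0112 with EGF and 0.015 untreated). EGF gave -0.14 in SYK-KO cells and -0.12 in SYK-WT cells, with adjusted p = 0.358 and 0.327.

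SCAP (chromosome 3, 47455175 to 47517449), the escort of the SREBP precursors, stood at 14.1 and 14.5 FPKM in SYK-KO EGF cells, 17.6 and 17.6 in SYK-KO, 16.8 and 19.6 in SYK-WT EGF and 21.8 and 20.7 in SYK-WT cells. The groups did not overlap in any of the 4 comparisons, with SYK-KO below SYK-WT and EGF below untreated, while the SYK-KO libraries lay within the range of the SYK-WT EGF ones. It was lower in SYK-KO EGF than in SYK-WT EGF cells by 0.33 on the log2 scale (adjusted p = 0.0142), a call that did not hold without either SYK-KO EGF library or SYK-WT EGF replicate 2 (adjusted p from 0.0542 to 0.103). In untreated cells the difference was -0.26 ± 0.081 (adjusted p = 0.0348), a call lost without either SYK-KO EGF library, either SYK-KO library or SYK-WT replicate 1, with library quality weights, with no filter on low values or with only the compared groups in the fit (adjusted p from 0.0535 to 0.141). EGF gave -0.28 in SYK-KO cells and -0.22 in SYK-WT cells, neither past the test (adjusted p = 0.0624 and 0.0832), though the first passed without either SYK-WT library, with library quality weights or with only the compared groups in the fit (adjusted p from 0.015 to 0.027).

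INSIG1 (chromosome 7, 155089486 to 155101945), itself a classical SREBP target, stood at 93.1 and 80.4 FPKM in SYK-KO EGF cells, 90.9 and 85.1 in SYK-KO, 119.8 and 132 in SYK-WT EGF and 123 and 141 in SYK-WT cells. All 4 SYK-KO libraries lay below all 4 SYK-WT libraries, and EGF and untreated libraries overlapped in both genotypes. The log2 fold change of SYK-KO against SYK-WT was -0.54 ± 0.099 with EGF (adjusted p = 0.00414) and -0.58 ± 0.099 untreated (adjusted p = 0.00317), and both calls held in every alternative. EGF gave -0.02 in SYK-KO cells and -0.07 in SYK-WT cells (adjusted p = 0.916 and 0.64).

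INSIG2 (chromosome 2, 118845994 to 118867607), the second retention protein, stood at 77.3 and 74.9 FPKM in SYK-KO EGF cells, 61.3 and 63.2 in SYK-KO, 85.8 and 83.0 in SYK-WT EGF and 58.0 and 61.9 in SYK-WT cells. In each genotype both EGF libraries lay above both untreated ones. INSIG2 rose with EGF by 0.29 ± 0.061 in SYK-KO (adjusted p = 0.0235) and 0.49 ± 0.061 in SYK-WT cells (adjusted p = 0.0015). The call in SYK-WT cells held in every alternative, and that in SYK-KO cells ended without either SYK-KO EGF library, either SYK-KO library or either SYK-WT EGF library (adjusted p from 0.0542 to 0.158). The genotypes overlapped without EGF (0.05, adjusted p = 0.508), and with EGF the difference was -0.15 (adjusted p = 0.0836), which passed without either SYK-WT library, with library quality weights or with only the compared groups in the fit (adjusted p from 0.0315 to 0.0489). STARD4, a cytosolic carrier of cholesterol, ranged from 14.7 to 18.9 FPKM over the 8 libraries. It was lower in SYK-KO EGF than in SYK-WT EGF cells by 0.20 on the log2 scale (adjusted p = 0.0302), a call lost without either SYK-KO EGF library, either SYK-KO library or either SYK-WT EGF library (adjusted p from 0.0626 to 0.159), and its interval also spans NREP and antisense transcripts.

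**Figure D4:**
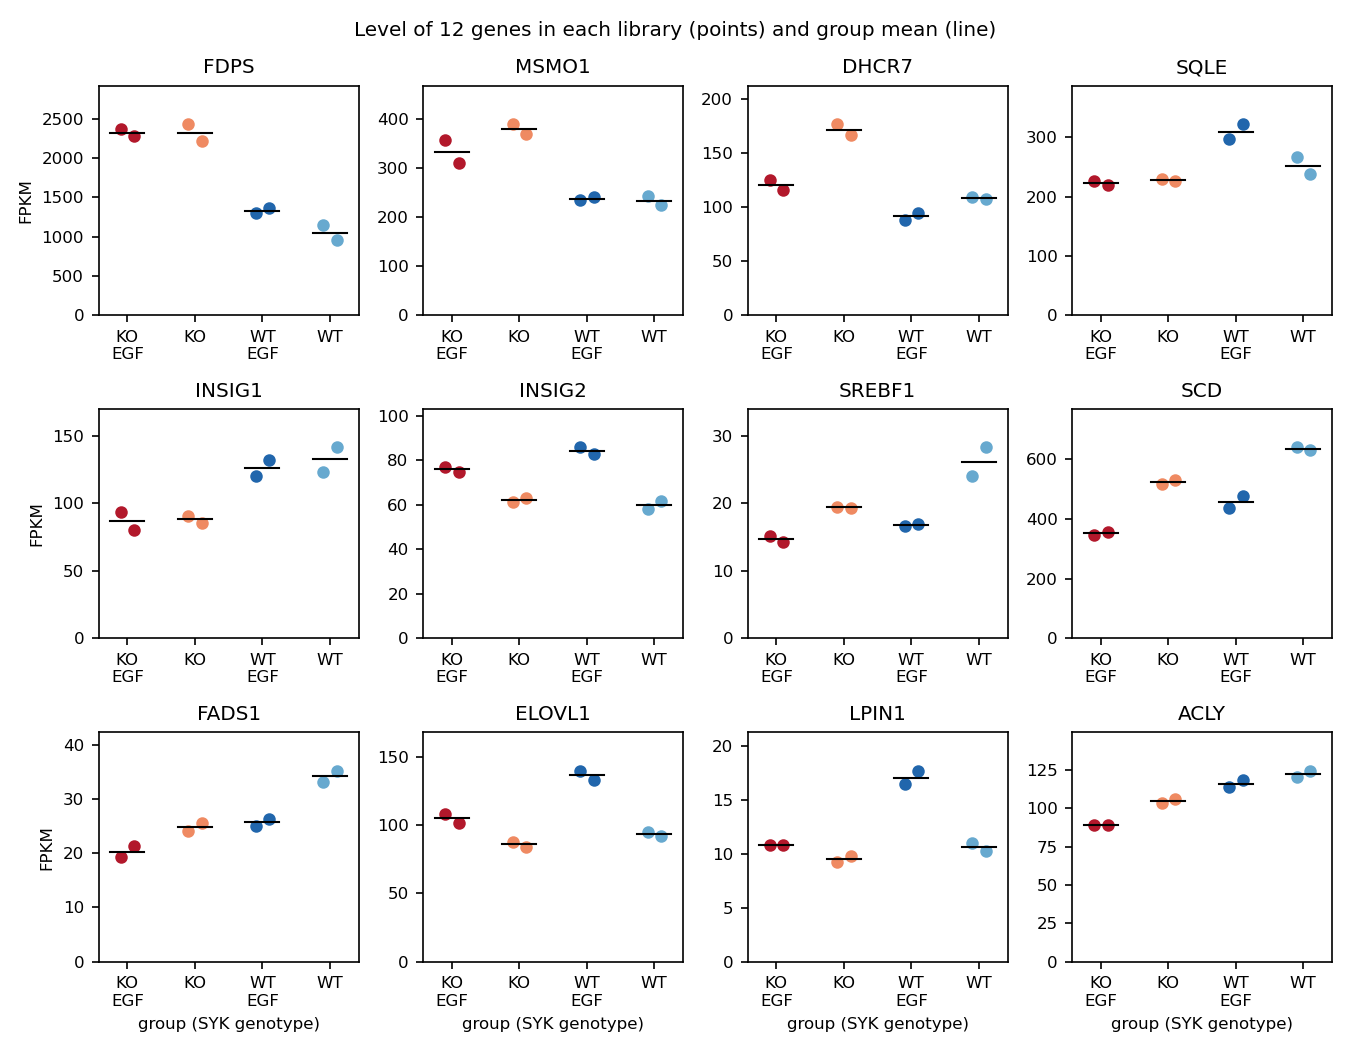
Each point is the FPKM of a gene in a library and each line the mean of a group of 2, for 12 genes, with every vertical axis starting at 0. FDPS, MSMO1 and DHCR7 are higher in both SYK-KO groups, INSIG1 is lower in both, and INSIG2, SCD, SREBF1, FADS1 and ELOVL1 shift with EGF in both genotypes.

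In the sterol branch, the early enzymes that build and phosphorylate mevalonate were not uniform. HMGCS1 (chromosome 5, 43287572 to 43313614), the HMG-CoA synthase, stood at 40.4 and 37.3 FPKM in SYK-KO EGF cells, 43.1 and 43.8 in SYK-KO, 49.2 and 51.9 in SYK-WT EGF and 50.5 and 59.2 in SYK-WT cells. All 4 SYK-KO libraries lay below all 4 SYK-WT libraries. HMGCS1 was lower by 0.37 with EGF (adjusted p = 0.0106) and 0.32 untreated (adjusted p = 0.0192) on the log2 scale. With EGF the call ended without SYK-KO EGF replicate 2 or SYK-WT EGF replicate 2 (adjusted p from 0.0717 to 0.0743), and untreated it ended without either SYK-KO library or with only the compared groups in the fit (adjusted p from 0.0663 to 0.1). MVK (chromosome 12, 110011500 to 110035075), mevalonate kinase, stood at 36.2 and 36.0 FPKM in SYK-KO EGF cells, 46.7 and 44.2 in SYK-KO, 28.6 and 30.1 in SYK-WT EGF and 36.0 and 44.1 in SYK-WT cells. In each genotype both EGF libraries lay below both untreated ones, and in each treatment both SYK-KO libraries lay above both SYK-WT ones. In SYK-WT cells EGF lowered MVK by 0.43 (adjusted p = 0.0148), which was no longer called without either SYK-WT EGF library or with only the compared groups in the fit (adjusted p from 0.0644 to 0.0973). MVK was higher in SYK-KO EGF than in SYK-WT EGF cells by 0.29 ± 0.095 (adjusted p = 0.04), a call that did not hold without either SYK-KO EGF library, either SYK-KO library or either SYK-WT EGF library or with no filter on low values (adjusted p from 0.0633 to 0.178). PMVK and MVD, the phosphomevalonate kinase and the decarboxylase, were higher in untreated SYK-KO than in SYK-WT cells. Their log2 fold changes were 0.36 for PMVK (adjusted p = 0.012) and 0.47 for MVD (adjusted p = 0.0107). PMVK lost its call without SYK-KO replicate 1 (adjusted p = 0.0926), and MVD lost its call without SYK-KO replicate 1 or with only the compared groups in the fit (adjusted p from 0.0511 to 0.0673). Between the genotypes with EGF, MVD gave 0.30, not past the test. It passed with equalised library medians, library quality weights, the replicate block or only the compared groups (limma adjusted p from 0.00504 to 0.0492). In SYK-KO cells EGF gave -0.32 for MVK, not past the test. That value passed with library quality weights or only the compared groups (adjusted p from 0.00606 to 0.00854). IDI1, the isomerase that follows, ranged from 68.6 to 84.4 FPKM and passed in no comparison with all 8 libraries. Its EGF change in SYK-WT cells passed without SYK-WT replicate 1 (adjusted p 0.0394), and its untreated genotype difference without SYK-WT replicate 1 (adjusted p 0.0435).

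FDPS showed the largest difference between the genotypes among the 34 genes. FDPS (chromosome 1, 155278539 to 155300909), farnesyl diphosphate synthase, whose product feeds sterols and protein prenylation, stood at 2370.3 and 2273 FPKM in SYK-KO EGF cells, 2429.5 and 2218 in SYK-KO, 1294 and 1359.8 in SYK-WT EGF and 1148 and 954 in SYK-WT cells. All 4 SYK-KO libraries lay above all 4 SYK-WT libraries, and the EGF and untreated libraries overlapped in SYK-KO cells but not in SYK-WT cells. SYK-KO over SYK-WT gave a log2 fold change of 0.81 ± 0.097 with EGF (adjusted p = 0.00066) and 1.15 ± 0.097 untreated (adjusted p = 0.000151), and both calls held in every alternative. In SYK-WT cells EGF gave 0.34 ± 0.097 (adjusted p = 0.0364), a call lost without either SYK-KO EGF library, either SYK-KO library, either SYK-WT EGF library or SYK-WT replicate 2, with library quality weights, with no filter on low values or with only the compared groups in the fit (adjusted p from 0.051 to 0.174). In SYK-KO cells the change was -0.00 (adjusted p = 1). FDPS has processed pseudogene copies and its interval also spans RUSC1, so its level is less certain.

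Of the enzymes around squalene, FDFT1 fell with EGF in SYK-KO cells and SQLE rose with it in SYK-WT cells. FDFT1 (chromosome 8, 11653082 to 11696818), squalene synthase, stood at 269.9 and 258 FPKM in SYK-KO EGF cells, 335 and 330.4 in SYK-KO, 279 and 284 in SYK-WT EGF and 308 and 363 in SYK-WT cells. In each genotype both EGF libraries lay below both untreated ones. EGF lowered FDFT1 in SYK-KO cells by 0.33 (adjusted p = 0.0382), a call lost without either SYK-KO EGF library, either SYK-KO library or either SYK-WT EGF library or with no filter on low values (adjusted p from 0.0771 to 0.186). In SYK-WT cells EGF gave -0.25 (adjusted p = 0.0572), which passed without SYK-WT replicate 1 (adjusted p 0.00243). SQLE (chromosome 8, 126010720 to 126034525), squalene epoxidase, a flux-controlling step, stood at 227 and 219 FPKM in SYK-KO EGF cells, 229.6 and 226 in SYK-KO, 297 and 322 in SYK-WT EGF and 266 and 239 in SYK-WT cells. Both SYK-WT EGF libraries lay above the other 6. SQLE rose with EGF in SYK-WT cells by 0.29 ± 0.073 (adjusted p = 0.0226), which was no longer called without either SYK-WT EGF library, with library quality weights or with only the compared groups in the fit (adjusted p from 0.0593 to 0.15), and gave -0.03 in SYK-KO cells (adjusted p = 0.826). It was lower in SYK-KO EGF than in SYK-WT EGF cells, at a log2 fold change of -0.47 ± 0.073 (adjusted p = 0.00201), in every alternative.

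Among the enzymes that turn lanosterol into cholesterol, MSMO1 and DHCR7 were higher in SYK-KO cells. MSMO1 (chromosome 4, 166248818 to 166264314), the sterol methyl oxidase, stood at 358 and 311 FPKM in SYK-KO EGF cells, 390.4 and 369.8 in SYK-KO, 234 and 242 in SYK-WT EGF and 243 and 225 in SYK-WT cells. All 4 SYK-KO libraries lay above all 4 SYK-WT libraries. The difference was 0.48 ± 0.082 with EGF (adjusted p = 0.00295) and 0.70 ± 0.082 untreated (adjusted p = 0.00065), in every alternative, and EGF changed it in neither genotype past the test (-0.19 in SYK-KO, 0.03 in SYK-WT cells). DHCR7 (chromosome 11, 71145457 to 71159477), the reductase that completes cholesterol from its dehydro precursor, stood at 125 and 116 FPKM in SYK-KO EGF cells, 177 and 167 in SYK-KO, 88.7 and 95.0 in SYK-WT EGF and 109 and 107 in SYK-WT cells. No pair of groups overlapped. It was higher in SYK-KO cells by 0.39 ± 0.068 with EGF (adjusted p = 0.00333) and 0.66 ± 0.068 untreated (adjusted p = 0.000357), in every alternative. EGF lowered it by 0.51 in SYK-KO cells (adjusted p = 0.00378), in every alternative, and by 0.23 in SYK-WT cells (adjusted p = 0.0386). The SYK-WT call was lost without either SYK-KO EGF library, either SYK-KO library or either SYK-WT EGF library, with library quality weights, with no filter on low values or with only the compared groups in the fit (adjusted p from 0.0541 to 0.216).

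HSD17B7 and NSDHL act beside MSMO1 in removing the methyl groups of lanosterol. HSD17B7 (chromosome 1, 162760492 to 162782608) stood at 32.8 and 30.0 FPKM in SYK-KO EGF cells, 36.1 and 33.6 in SYK-KO, 29.1 and 28.5 in SYK-WT EGF and 27.8 and 27.8 in SYK-WT cells. Both SYK-KO libraries lay above both SYK-WT ones, with a log2 fold change of 0.32 ± 0.069 (adjusted p = 0.00888) that lost its call without SYK-KO replicate 1 (adjusted p = 0.0802). NSDHL was higher in untreated SYK-KO cells by 0.37 (adjusted p = 0.0162), a call that did not hold without SYK-KO replicate 1 or with only the compared groups in the fit (adjusted p from 0.0705 to 0.117). EBP (chromosome X, 48380164 to 48387104), the sterol isomerase, stood at 5.60 and 5.38 FPKM in SYK-KO EGF cells, 5.27 and 5.45 in SYK-KO, 6.48 and 4.68 in SYK-WT EGF and 8.06 and 9.27 in SYK-WT cells. Both SYK-WT libraries lay above the other 6. EBP was lower in untreated SYK-KO than in SYK-WT cells, at a log2 fold change of -0.60 ± 0.13 (adjusted p = 0.00809), a call lost without SYK-KO replicate 1 (adjusted p = 0.054), and fell with EGF in SYK-WT cells by 0.57 (adjusted p = 0.0162). The EGF call ended without SYK-WT EGF replicate 2, with library quality weights or with only the compared groups in the fit (adjusted p from 0.0701 to 0.0815). LSS, CYP51A1, TM7SF2 and SC5D, the lanosterol synthase, its demethylase, a sterol reductase and a desaturase, passed in no comparison, though 3 of the 4 did under alternatives. EGF in SYK-KO cells gave -0.33 for LSS (adjusted p = 0.113), which passed without either SYK-WT library, with library quality weights or with only the compared groups in the fit (adjusted p from 0.0086 to 0.0164). For TM7SF2 it gave -0.27 (adjusted p = 0.218), which passed without either SYK-WT library, with library quality weights or with only the compared groups in the fit (adjusted p from 0.0078 to 0.0246). EGF in SYK-WT cells gave -0.34 for TM7SF2 (adjusted p = 0.0879), against -0.56 without SYK-WT replicate 1 (adjusted p = 0.000455), and LSS, at -0.07, passed without SYK-WT replicate 1 (adjusted p 0.0481). Between untreated SYK-KO and SYK-WT cells LSS, at 0.22, passed without SYK-WT replicate 2 (adjusted p 0.00663), and TM7SF2, at -0.10, passed without SYK-WT replicate 1 (adjusted p 0.00467) and was 0.13 without SYK-WT replicate 2. CYP51A1 was near the threshold, at 0.22 with EGF (adjusted p = 0.0677) and 0.24 untreated (adjusted p = 0.0521). It passed with EGF without either SYK-WT library, with equalised library medians, with library quality weights or with only the compared groups in the fit (adjusted p from 0.013 to 0.0497), and untreated without SYK-WT replicate 2 or with equalised library medians (adjusted p from 0.00489 to 0.035). With the replicate number as a block, CYP51A1 passed between the genotypes with EGF and untreated (limma adjusted p = 0.0324 and 0.0252). LSS passed with that block for EGF in SYK-KO cells (adjusted p = 0.0443). The row of TM7SF2 also holds VPS51, so its value is uncertain.

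In the fatty acid branch, ACLY, ACACA and FASN, which act in sequence from citrate to palmitate, were lower in SYK-KO cells in both treatments. ACLY (chromosome 17, 40023170 to 40075275), which makes cytosolic acetyl-CoA from citrate, stood at 88.8 and 89.3 FPKM in SYK-KO EGF cells, 104 and 106 in SYK-KO, 114 and 118 in SYK-WT EGF and 120.3 and 125 in SYK-WT cells. All 4 SYK-KO libraries lay below all 4 SYK-WT libraries. The difference was -0.38 ± 0.057 with EGF (adjusted p = 0.00171), in every alternative, and -0.22 ± 0.057 untreated (adjusted p = 0.0174), a call lost without either SYK-KO library, with library quality weights or with only the compared groups in the fit (adjusted p from 0.0565 to 0.114). EGF lowered ACLY in SYK-KO cells by 0.23 (adjusted p = 0.036), a call lost without either SYK-KO EGF library, either SYK-KO library or either SYK-WT EGF library (adjusted p from 0.0746 to 0.231). ACSS2, which makes acetyl-CoA from acetate, was the exception of the branch and ranged from 45.7 to 73.9 FPKM. With EGF it stood at 64.7 and 63.5 FPKM in SYK-KO EGF and 47.3 and 55.5 in SYK-WT EGF cells. That difference of 0.32 did not pass the test. It passed with library quality weights or with only the compared groups in the fit (limma adjusted p from 0.0142 to 0.0165). Untreated, ACSS2 was higher in SYK-KO than in SYK-WT cells by 0.43 ± 0.14 (adjusted p = 0.0359). That call ended without either SYK-KO EGF library, either SYK-KO library or SYK-WT replicate 1, with no filter on low values or with only the compared groups in the fit (adjusted p from 0.0605 to 0.155).

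ACACA (chromosome 17, 35441927 to 35766902), the cytosolic acetyl-CoA carboxylase, stood at 6.32 and 7.05 FPKM in SYK-KO EGF cells, 7.53 and 7.90 in SYK-KO, 8.99 and 9.82 in SYK-WT EGF and 9.69 and 9.75 in SYK-WT cells. All SYK-KO libraries lay below all SYK-WT libraries. ACACA was lower by 0.44 with EGF (adjusted p = 0.00359), in every alternative, and by 0.30 untreated (adjusted p = 0.0185), which was no longer called without either SYK-KO library, with library quality weights or with only the compared groups in the fit (adjusted p from 0.0515 to 0.12). FASN (chromosome 17, 80036214 to 80056106), fatty acid synthase, stood at 44.7 and 48.4 FPKM in SYK-KO EGF cells, 55.2 and 56.6 in SYK-KO, 55.6 and 61.5 in SYK-WT EGF and 64.2 and 77.3 in SYK-WT cells. SYK-KO libraries lay below SYK-WT libraries in each treatment. It was lower by 0.32 with EGF and by 0.33 untreated (adjusted p = 0.0296 and 0.0299). With EGF the call ended without either SYK-KO EGF library, either SYK-KO library or either SYK-WT EGF library or with no filter on low values (adjusted p from 0.051 to 0.171), and untreated it ended without either SYK-KO library or SYK-WT replicate 2, with library quality weights, with no filter on low values or with only the compared groups in the fit (adjusted p from 0.0542 to 0.136).

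The desaturases SCD and FADS1 fell with EGF and were lower in SYK-KO cells. SCD (chromosome 10, 102106772 to 102124588), stearoyl-CoA desaturase, which makes oleate, stood at 347 and 357 FPKM in SYK-KO EGF cells, 517 and 529.9 in SYK-KO, 435 and 477 in SYK-WT EGF and 639 and 632 in SYK-WT cells. No pair of groups overlapped, and the SYK-KO EGF libraries were the lowest of the 8. EGF lowered SCD, at a log2 fold change of -0.57 ± 0.065 in SYK-KO cells (adjusted p = 0.00204) and -0.48 ± 0.065 in SYK-WT cells (adjusted p = 0.00212), in every alternative. SYK-KO against SYK-WT gave -0.37 ± 0.065 with EGF (adjusted p = 0.00333), in every alternative, and -0.28 ± 0.065 untreated (adjusted p = 0.0118), a call that did not hold without either SYK-KO library, with library quality weights or with only the compared groups in the fit (adjusted p from 0.0501 to 0.0814).

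FADS1 (chromosome 11, 61567097 to 61634826), a desaturase of polyunsaturated fatty acids, stood at 19.3 and 21.2 FPKM in SYK-KO EGF cells, 24.2 and 25.5 in SYK-KO, 25.1 and 26.3 in SYK-WT EGF and 33.1 and 35.2 in SYK-WT cells. The EGF libraries lay below the untreated ones in each genotype, and the SYK-KO libraries below the SYK-WT ones in each treatment. EGF lowered it by 0.28 in SYK-KO cells (adjusted p = 0.0453), a call lost without either SYK-KO EGF library, either SYK-KO library or either SYK-WT EGF library or with no filter on low values (adjusted p from 0.0646 to 0.279). In SYK-WT cells it fell by 0.40 (adjusted p = 0.00717), a call lost without SYK-WT EGF replicate 1 (adjusted p = 0.063). The genotype difference was -0.33 ± 0.073 with EGF (adjusted p = 0.00892), which lost its call without SYK-KO EGF replicate 1 or SYK-WT EGF replicate 2 (adjusted p from 0.0662 to 0.0681), and -0.44 ± 0.073 untreated (adjusted p = 0.00266), in every alternative. FADS2, the neighbouring desaturase, has a row of its own with the same printed interval, ranged from 11.2 to 14.1 FPKM and passed in no comparison. Strand is not given, so reads of overlapping genes cannot be told apart.

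The elongases differed from each other. ELOVL1 (chromosome 1, 43829068 to 43833745), which extends saturated very long chains, stood at 108 and 102 FPKM in SYK-KO EGF cells, 87.7 and 84.4 in SYK-KO, 140.0 and 133 in SYK-WT EGF and 94.7 and 91.8 in SYK-WT cells. The EGF libraries lay above the untreated ones in each genotype. ELOVL1 rose with EGF by 0.29 ± 0.063 in SYK-KO (adjusted p = 0.0259) and 0.55 ± 0.063 in SYK-WT cells (adjusted p = 0.00105), the second in every alternative. The SYK-KO call was lost without either SYK-KO EGF library, either SYK-KO library or either SYK-WT EGF library (adjusted p from 0.0544 to 0.193). ELOVL1 was lower in SYK-KO EGF than in SYK-WT EGF cells, at a log2 fold change of -0.38 ± 0.063 (adjusted p = 0.00273), in every alternative. ELOVL6 (chromosome 4, 110970229 to 111119820), which extends palmitate, stood at 0.998 and 1.26 FPKM in SYK-KO EGF cells, 1.87 and 1.75 in SYK-KO, 0.975 and 0.685 in SYK-WT EGF and 1.41 and 2.15 in SYK-WT cells. EGF libraries lay below untreated ones in each genotype. The fall passed in SYK-WT cells (-0.59 ± 0.14, adjusted p = 0.0208) and not in SYK-KO cells (-0.40, adjusted p = 0.115), where it passed without either SYK-WT library, with library quality weights or with only the compared groups in the fit (adjusted p from 0.0243 to 0.0276), and the SYK-WT call was lost without either SYK-WT EGF library or SYK-WT replicate 2, with no filter on low values or with only the compared groups in the fit (adjusted p from 0.0508 to 0.132). Without SYK-WT replicate 1 it was -0.79, and with a pseudocount of 0.1 it was -1.004, since log2(FPKM + 1) understates the change of a gene so low. ELOVL5 ranged from 74.8 to 96.8 FPKM and passed in no comparison with all 8 libraries. Its EGF change in SYK-WT cells passed without SYK-WT replicate 1 (adjusted p 0.00581), and its untreated genotype difference without SYK-WT replicate 2 (adjusted p 0.0256).

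LPIN1 (chromosome 2, 11817705 to 11967533), a phosphatidate phosphatase and transcriptional coactivator, stood at 10.8 and 10.8 FPKM in SYK-KO EGF cells, 9.27 and 9.81 in SYK-KO, 16.4 and 17.7 in SYK-WT EGF and 11.0 and 10.2 in SYK-WT cells. Both SYK-WT EGF libraries lay above the other 6. LPIN1 rose with EGF in SYK-WT cells by 0.64 ± 0.071 (adjusted p = 0.000936), in every alternative, and gave 0.16 ± 0.071 in SYK-KO cells (adjusted p = 0.192). It was lower in SYK-KO EGF than in SYK-WT EGF cells, at a log2 fold change of -0.61 ± 0.071 (adjusted p = 0.000566), in every alternative, while the untreated genotypes gave -0.14 (adjusted p = 0.156).

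Whether EGF acted differently in SYK-KO and SYK-WT cells was tested as the difference of the responses. Of the 34 members, 0 were called higher or lower (limma, Benjamini-Hochberg adjusted), beside 0.00826% of all loci, which is 1 locus, and 7 members, 20.6% of the 34, had an unadjusted p under 0.05, against 8.83% of all loci. The difference was negative for 26 of 34 members, beside 6337 of all 12112 loci, with a median of -0.10 beside -0.01 for all loci. It was -0.48 ± 0.10 for LPIN1 (adjusted p = 0.288), -0.34 ± 0.14 for FDPS (adjusted p = 0.537), -0.33 ± 0.10 for SQLE (adjusted p = 0.456) and 0.60 ± 0.18 for EBP (adjusted p = 0.435). Without SYK-WT replicate 1, LPIN1, SQLE and FDPS passed (adjusted p = 0.0252, 0.0372 and 0.0407), when 867 loci were called in all. Responses that passed only in SYK-WT cells are therefore not shown to differ between the genotypes with all 8 libraries.

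Other genes of the pathway were read from lists, whose counts stand beside these shares of all loci: 21.1% higher and 22.5% lower in SYK-KO EGF against SYK-WT EGF cells, and 20.3% and 20.2% in SYK-KO against SYK-WT cells. With EGF the shares were 6.67% and 5.13% in SYK-KO cells, and 14.7% and 12.1% in SYK-WT cells. Of 9 genes that process or degrade SREBP and the INSIG proteins, 2 were higher and 4 lower in SYK-KO EGF than in SYK-WT EGF cells, and 2 and 4 in SYK-KO than in SYK-WT cells. ERLIN2, which helps to degrade sterol-sensing proteins at the endoplasmic reticulum, was lower by 0.84 with EGF (adjusted p = 0.000333) and 0.81 untreated (adjusted p = 0.000415). RNF139, a ubiquitin ligase of that membrane, was lower by 0.49 and 0.42 (adjusted p = 0.00236 and 0.00488). EGF changed 1 gene upward in SYK-KO cells, and 1 upward and 2 downward in SYK-WT cells. The riser in both was SEC24D, a coat protein of transport vesicles, at 0.37 and 0.50 (adjusted p = 0.012 and 0.00208). The SYK-KO call was lost without either SYK-KO EGF library or either SYK-KO library (adjusted p from 0.0801 to 0.12).

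Of 13 genes of sterol uptake, transport, storage and efflux, 2 were higher and 6 lower in SYK-KO EGF than in SYK-WT EGF cells, and 3 and 5 in SYK-KO than in SYK-WT cells. SCARB1, the receptor for high-density lipoprotein, was lower by 0.86 and 0.59 (adjusted p = 0.000298 and 0.00155). NPC1, which exports cholesterol from lysosomes, rose with EGF by 0.75 in SYK-KO cells and 0.45 in SYK-WT cells (adjusted p = 0.000498 and 0.00186). MYLIP, a ubiquitin ligase of lipoprotein receptors, fell by 0.39 and 0.84 (adjusted p = 0.0165 and 0.000431), the first of which ended without either SYK-KO EGF library or either SYK-KO library (adjusted p from 0.0641 to 0.153). In all, EGF changed 2 of the 13 upward and 2 downward in SYK-KO cells, and 4 and 2 in SYK-WT cells.

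Beside the same shares of all loci, of 18 tested genes of fatty acid supply, elongation and activation, 6 were higher and 5 lower in SYK-KO EGF than in SYK-WT EGF cells, and 4 and 5 in SYK-KO than in SYK-WT cells. ACSL5, an acyl-CoA synthetase, was lower by 1.11 and 1.11 (adjusted p = 0.000316 and 0.000327) and rose with EGF by 0.86 and 0.86 in SYK-KO and SYK-WT cells (adjusted p = 0.00338 and 0.00172). EGF gave 2 higher and 3 lower genes of this list in SYK-KO cells, and 1 and 3 in SYK-WT cells. ELOVL3 was higher in SYK-KO EGF than in SYK-WT EGF cells by 1.59 (adjusted p = 2.46e-05). Of 11 tested genes of glycerolipid synthesis, 2 were higher and 3 lower in each genotype comparison, and EGF gave 1 higher and 0 lower in SYK-KO cells, and 3 and 0 in SYK-WT cells. In the genotype comparisons that was 45.5% of the list called, near the 43.6% of all loci with EGF and 40.5% untreated. GPAM, which begins glycerolipid synthesis, was lower in SYK-KO cells by 0.74 with EGF and 0.56 untreated (adjusted p = 0.00158 and 0.00555), and PLIN3, a lipid droplet coat protein, rose with EGF in SYK-WT cells by 0.97 (adjusted p = 0.000609). Of 12 genes of fatty acid oxidation, 2 were higher and 7 lower with EGF in SYK-KO than in SYK-WT cells, and 1 and 4 untreated, while EGF gave 1 higher and 1 lower in SYK-KO cells, and 3 and 1 in SYK-WT cells. CPT1A, which admits fatty acids to mitochondria, fell with EGF in SYK-WT cells by 0.55 (adjusted p = 0.00218). Of 10 isoprenoid and other sterol enzymes, 0 were higher and 3 lower with EGF, and 1 and 4 untreated, in SYK-KO against SYK-WT cells, and EGF gave 0 in either direction in SYK-KO cells, and 2 higher and 3 lower in SYK-WT cells. GGPS1, which extends the product of FDPS, was lower by 0.78 and 0.48 (adjusted p = 0.00151 and 0.012), the second of which ended without SYK-KO replicate 2 (adjusted p 0.0835).

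In the authors' deposited table, q was under 0.05 for 7 members in SYK-KO EGF against SYK-WT EGF cells, 8 in SYK-KO against SYK-WT cells and 8 in SYK-WT EGF against SYK-WT cells, of the 34 tested. These were 20.6%, 23.5% and 23.5%, against 24%, 21.5% and 15.2% of the 12112 loci tested, so the genotype shares were near the background. FDPS had q = 0.000583 with EGF and q = 0.000583 untreated in the authors' deposited table, and INSIG1 had q = 0.00729 and 0.00239 there. MSMO1 and DHCR7 were also under 0.05 in both genotype comparisons. The other members called lower in both by limma were not. HMGCS1, SCAP, ACLY, FASN and SCD were under 0.05 in neither, with q from 0.061 for ACLY with EGF to 0.343 for ACLY untreated. ACACA was under 0.05 only with EGF (q = 0.017) and FADS1 only untreated (q = 0.0464).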

How the data were processed

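The deposited FPKM were made by the authors with TopHat, Cufflinks and Cuffdiff 2.2.1.3 on hg19, per the submitters' processing notes, and the deposited q-values (adjusted p-values) are the authors' own. The table gives FPKM and no counts, so no count test was run. No source used here gives the scaling between libraries or the use of strand. The 12112 loci that reached 1 FPKM in 2 or more libraries were fitted as log2(FPKM + 1), a scale that understates the change of low genes, with limma 3.58.1 in R 4.3.3 (lmFit and eBayes with trend, two-sided). All 4 groups shared the spread, with 4 residual degrees of freedom. P-values were Benjamini-Hochberg adjusted over all loci within each of 5 contrasts, at a threshold of 0.05. The fit was tested on simulated data. Fold changes are on the log2(FPKM + 1) scale.

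Values in every library are given for SREBF1, SREBF2, SCAP, INSIG1 and INSIG2, and in each contrast for up to 5 called members of the sterol and of the fatty acid branch with the smallest adjusted p. In each other list up to 3 genes per contrast could be named, by the same order. The members and lists were chosen with earlier results of these data known. Alternatives were a pseudocount of 0.1, no filter, equalised library medians, only the compared groups in the fit, library quality weights, the replicate number as a block, and each library left out in turn. Promoter windows and their coordinates are from RefSeq on GRCh38.p14, and gene coordinates are those of the deposited table on hg19.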

Additional observations from a re-analysis of the deposited data

Results flagged for a closer look

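Among the members and the lists, 4 genes had EGF libraries on opposite sides of the untreated ones in the 2 genotypes, every library included. The share of such genes over all loci was not counted. EGF and untreated libraries did not overlap for 63.3% of all loci in SYK-KO cells and 63% in SYK-WT cells. HSD17B7, a sterol branch member whose values are given above, had a difference of responses, SYK-KO minus SYK-WT, of -0.19 on the log2 scale (limma adjusted p = 0.626). ACAT2, the cytosolic acetoacetyl-CoA thiolase, stood at 153 and 147 FPKM in SYK-KO EGF cells, 177 and 174 in SYK-KO, 132 and 133 in SYK-WT EGF and 113 and 129 in SYK-WT cells, and its difference was -0.36 (adjusted p = 0.415). HADHB, a subunit of the mitochondrial trifunctional protein, stood at 28.5 and 27.3 FPKM in SYK-KO EGF cells, 28.6 and 28.9 in SYK-KO, 32.6 and 32.5 in SYK-WT EGF and 32.3 and 30.1 in SYK-WT cells, and its difference was -0.10 (adjusted p = 0.774). ACAA2, a mitochondrial thiolase, stood at 20.0 and 19.8 FPKM in SYK-KO EGF cells, 20.4 and 20.4 in SYK-KO, 15.7 and 16.0 in SYK-WT EGF and 11.5 and 12.5 in SYK-WT cells, and its difference was -0.41 (adjusted p = 0.313). None of the 4 passed the test of the difference.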

How the results depend on the processing

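Of 170 values (34 members in 5 contrasts), 54 passed the threshold and 0 of these turned direction under any alternative. Of the other 116, 40 took the opposite sign under some alternative, none past the threshold there, and the 40 reached at most 0.19 in size with all libraries. Of the members called, 10 of 16 kept their call under every alternative in SYK-KO EGF against SYK-WT EGF cells, 6 of 18 in SYK-KO against SYK-WT cells, 2 of 8 for EGF in SYK-KO cells and 5 of 12 for EGF in SYK-WT cells. Leaving out 1 library at a time gave 3 to 7 members higher, 7 to 15 lower and 2952 to 6835 loci called in SYK-KO EGF against SYK-WT EGF cells. It gave 3 to 11 higher, 3 to 11 lower and 2460 to 5935 loci in SYK-KO against SYK-WT cells. For EGF in SYK-KO cells it gave 0 to 2 higher, 2 to 12 lower and 319 to 2984 loci, and for EGF in SYK-WT cells 3 to 7 higher, 3 to 13 lower and 1255 to 5108 loci. The difference of the responses had 0 to 3 members lower and 0 to 867 loci. With only the compared groups in the fit, 7 members were higher with EGF and 5 higher and 4 lower untreated between the genotypes (3007 loci untreated). The same fit gave 12 lower for EGF in SYK-KO cells (2646 loci), and 3 higher and 3 lower for EGF in SYK-WT cells (1254 loci). With library quality weights, 7 were higher with EGF and 5 lower untreated between the genotypes, 12 were lower for EGF in SYK-KO cells (3024 loci), 3 were higher for EGF in SYK-WT cells (1877 loci), and 2 loci had a difference of responses. With no filter, 3 members were lower for EGF in SYK-KO cells and 2 loci had a difference of responses. The cause of these shifts was not tested. The smaller fits held fewer samples, and the quality weights were 0.331 for the SYK-WT libraries against 1.17 to 1.71 for the others. Whether the replicate numbers pair the samples is not given. The correlations of same-numbered deviations were 0.161 to 0.270 among SYK-WT, SYK-KO and SYK-KO EGF libraries. Between SYK-WT EGF and those groups they were -0.381 to -0.161. The same number therefore did not go with the same deviation in all 4 groups. With the replicate block 8 member values gained a call and 0 lost one. Levels near 1 FPKM, as for ELOVL6, and 2 libraries a group limit the precision.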
